A study of Mus musculus with 20 samples.

Results

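The 9 genes described here encode the subunits of the AMPA and NMDA types of glutamate receptor: Gria1, Gria2, Gria3 and Gria4 for the AMPA receptor, and Grin1, Grin2a, Grin2b, Grin2c and Grin2d for the NMDA receptor. They were chosen by name, with earlier results of these data known. All 9 were found among the 29200 genes of the count table and were abundant enough to be tested. Cerebellar mRNA was sequenced from 4 groups of 5 mice: WT/WT mice and 304Q/304Q mice aged 2 months, and both genotypes again at 12 months. All mice had a C57BL6/N background and, per the study's methods, were males. The 304Q/304Q mice carry, in both copies of the murine Atxn3 gene, a polyglutamine-coding repeat of 304 units that was introduced with zinc-finger nucleases and stands under the gene's own regulatory elements. The WT/WT mice carry 2 copies without the expansion. The paper calls the WT/WT mice age-matched littermates of the 304Q/304Q mice. The whole 304Q line goes back to 1 founder. The genotype therefore cannot be told apart from other changes inherited together with the altered Atxn3 gene. The sample labels name the wild-type alleles after ataxin-2, and the study's description of Atxn3 was followed here.

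Glutamate is the transmitter of the parallel and climbing fibres onto Purkinje cells and of the mossy fibres onto granule cells. AMPA receptors assemble from GluA1 to GluA4, the products of Gria1 to Gria4, and carry the fast current, and an edited GluA2 keeps calcium out of the channel. NMDA receptors pair the obligatory GluN1, the product of Grin1, with GluN2 subunits that set the kinetics, and need glycine or D-serine as well as glutamate to open. In the maturing cerebellum, granule cells are known for exchanging GluN2B for GluN2C, Purkinje cells for GluA2 and GluA3, and Bergmann glia for GluA1 and GluA4 without GluA2.

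The 20 libraries held 11385380 to 27636687 counted reads, and all but the deepest, 304Q/304Q mouse 1 of 2 months, held at most 16606406. No pair of libraries within a group was as close as repeated sampling would give, since the chi-square per degree of freedom was at least 4.43. All 7 listed cerebellar genes were present, with group means of 62.15 (En1) to 18370 (Cbln1) normalized counts. The Hox genes of hindbrain had group means of at most 1.54. Of the forebrain genes, Emx1 stayed at or below 3.49, whereas Neurod2 reached 2481. Transcripts of the choroid plexus, led by Ttr, had a summed RPKM above 100 in 6 libraries (304Q/304Q mouse 3 of 2 months, WT/WT mice 1, 2 and 5 of 12 months, 304Q/304Q mice 1 and 3 of 12 months) and 4.52 to 18.8 in the other 14. Libraries also differed in how levels followed the GC content of transcripts: the slope ran from -0.188 to 0.074 log2 units per 10 GC points in the WT/WT mice of 2 months (median -0.124) and from -0.137 to 0.04 in the 304Q/304Q mice of 2 months (median 0.009). At 12 months it ran from -0.075 to 0.203 in WT/WT (median 0.134) and from -0.071 to 0.041 in 304Q/304Q mice (median -0.029). Both the choroid plexus transcripts and the GC slope are given below beside results that move with them, for the subunits and for only some genes of the lists. The Atxn3 transcript itself was 0.54 log2 units lower in 304Q/304Q mice at 2 months (adjusted p = 0.0916, from the quasi-likelihood test of edgeR with p-values adjusted after Benjamini and Hochberg) and 0.13 lower at 12 months (adjusted p = 0.51).

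Before the values, the sequence just upstream of the genes is shown, because the base composition of these genes is taken up again below. Of the 9 genes, 5 had an entry in the RefSeq promoter table (GRCm38.p6), namely Gria2, Gria4, Grin1, Grin2c and Grin2d. The 250 bases before the start of the 4 genes whose entry begins at the annotated gene start are printed 5′ to 3′ along the coding strand, in lower case, with each GC box (GGGCGG, the element read by Sp1-type factors) in capitals.
Gria2, chr3:80802836-80803085, minus strand: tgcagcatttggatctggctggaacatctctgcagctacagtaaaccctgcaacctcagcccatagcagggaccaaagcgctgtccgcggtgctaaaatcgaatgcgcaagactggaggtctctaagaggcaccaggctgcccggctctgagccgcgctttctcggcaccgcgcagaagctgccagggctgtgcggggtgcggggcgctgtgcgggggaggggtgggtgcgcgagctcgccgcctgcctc
Gria4, chr9:4796235-4796484, minus strand: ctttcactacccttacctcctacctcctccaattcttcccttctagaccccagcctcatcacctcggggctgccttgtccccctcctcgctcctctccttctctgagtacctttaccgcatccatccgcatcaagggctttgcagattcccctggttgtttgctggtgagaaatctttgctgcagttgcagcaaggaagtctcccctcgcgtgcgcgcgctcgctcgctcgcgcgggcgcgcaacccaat
Grin1, chr2:25319188-25319437, minus strand: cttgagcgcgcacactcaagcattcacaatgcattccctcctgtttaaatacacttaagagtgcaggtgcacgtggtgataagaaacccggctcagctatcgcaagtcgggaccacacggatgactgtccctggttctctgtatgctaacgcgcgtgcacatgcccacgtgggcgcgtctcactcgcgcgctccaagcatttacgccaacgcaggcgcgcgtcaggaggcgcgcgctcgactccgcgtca
Grin2c, chr11:115267244-115267493, minus strand: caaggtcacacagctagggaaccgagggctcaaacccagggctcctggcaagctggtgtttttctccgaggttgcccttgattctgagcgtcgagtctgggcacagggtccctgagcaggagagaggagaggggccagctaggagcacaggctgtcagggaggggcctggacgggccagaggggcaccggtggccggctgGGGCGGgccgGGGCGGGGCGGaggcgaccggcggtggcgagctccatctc
The GC content of these windows was 64.8% for Gria2, 58.8% for Gria4, 58.8% for Grin1 and 68.8% for Grin2c, against a median of 52% over the 27025 promoters of the table. GC boxes were searched on both strands. The Grin2c window held 3, which begin 50, 40 and 35 bases before the start, the last 2 sharing 1 base, and none of the other windows held any. At least 1 GC box stood in 32.9% of all promoters of this length. The palindromic cAMP response element TGACGTCA (in 1.62% of all promoters), the EGR element GCGTGGGCG (0.54%) and the RE1 element of neuronal genes (0.0296%) had no match in these windows on either strand. All 4 windows, of AMPA and NMDA genes alike, were richer in GC than the median, whereas the transcripts fall into a GC-poorer and a GC-rich class that is described below.

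Per kilobase of exon, the AMPA subunits Gria1 and Gria4 and the NMDA subunits Grin2c and Grin1 were abundant, and the rest were far lower. Over all 20 mice, the mean RPKM (read counts scaled for the length of the merged exons and for library size) was 113 for Gria1, 82.9 for Gria4, 65.4 for Grin2c, 39.2 for Grin1, 13.5 for Gria2, 11.5 for Gria3, 3.39 for Grin2a, 3.25 for Grin2d and 0.853 for Grin2b. Gria1 thus stood above 97.8% of all genes tested and Grin2b above 3%. The order of neighbours held in all 20 mice except for Gria4 above Grin2c (19 mice), Gria2 above Gria3 (16 mice) and Grin2a above Grin2d (11 mice), so that the last pair could not be put in order. With the longest coding transcript as the length, Grin1 had 88.8 RPKM and stood above Grin2c (67.3), and Gria3 (21.9) stood above Gria2 (20.3) in 14 mice. The position of Grin1 and the order of Gria2 and Gria3 therefore rest on which exons are counted as length.

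**Figure D1:**
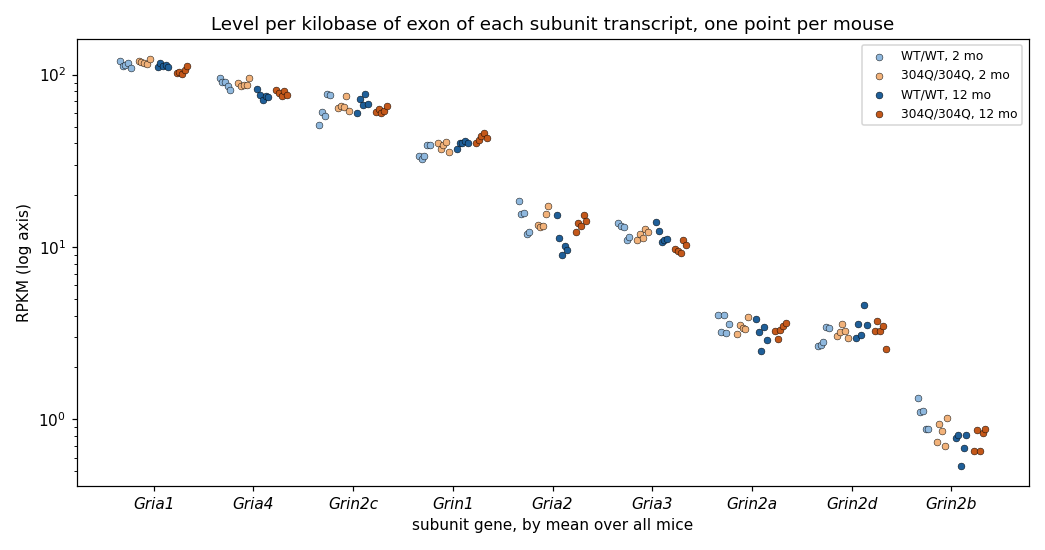
RPKM (log axis) of the 9 subunit genes, ordered by their mean, with 1 point per mouse and the 4 groups in separate colours. Gria1 leads with a mean of 113 and Grin2b is lowest at 0.853; the genes are much further apart than the groups.

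As a share of the summed AMPA subunit RPKM, Gria1 made up 48.4 to 55.1% and Gria4 35.1 to 39.5% over all mice, leaving 4.44 to 7.44% for Gria2 and 4.6 to 6.3% for Gria3. At 12 months the share of Gria3 was 5.59% ± 0.433 (SD, n = 5) in WT/WT mice and 4.78% ± 0.206 in 304Q/304Q mice, and the lowest WT/WT mouse (5.24%) lay above the highest 304Q/304Q mouse (5.12%). The share of Gria2 was 5.21% ± 0.992 in WT/WT mice and 6.64% ± 0.453 in 304Q/304Q mice of 12 months, and these overlapped through WT/WT mouse 1 (6.91%). Among the GluN2 subunits, Grin2c held 86.3 to 91.6% in every mouse, Grin2a 3.42 to 6.87%, Grin2d 3.49 to 5.37% and Grin2b 0.74 to 2.26%. The summed GluN2 RPKM was 1.91 ± 0.119 times that of Grin1 in WT/WT mice of 12 months and 1.63 ± 0.0969 times in 304Q/304Q mice, with ranges of 1.82 to 2.09 and 1.51 to 1.7 that did not overlap. At 2 months the same ratio was 2.02 ± 0.176 in WT/WT mice and 1.92 ± 0.103 in 304Q/304Q mice, which overlapped. The value of this ratio rests on the length used: with the longest coding transcript it was 0.882 ± 0.0553 (WT/WT) against 0.751 ± 0.0442 (304Q/304Q) at 12 months, again with no overlap, and 0.933 ± 0.0786 against 0.886 ± 0.0472 at 2 months. These shares and ratios were not tested.

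At 2 months, no subunit gene passed the test between the genotypes. By edgeR's quasi-likelihood test over 12153 genes, 0 of the 9 genes had an adjusted p of at most 0.05, a threshold that 0.0494% of all genes tested met. DESeq2 also gave 0 of 9. The values of the 2 genotypes overlapped for all 9 genes, and non-overlap was found for 1.05% of all genes. An unadjusted p under 0.05, met by 5.55% of all genes, was reached by Grin2b only. The log2 fold changes of 304Q/304Q over WT/WT mice ran from -0.33 (Grin2b) to 0.11 (Grin1), with a median of 0.002 beside -0.002 over all genes tested.

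Grin2b (chr6:135713233-136173511, minus strand, GRCm38) encodes the GluN2B subunit of immature granule cells. At 2 months its normalized counts, that is counts scaled to the mean library size, were 469.7, 388.6, 395.9, 311.3 and 310 in the 5 WT/WT mice and 260.9, 330.5, 300.9, 246.7 and 357.9 in the 5 304Q/304Q mice. The 3 highest values belonged to WT/WT mice and the 3 lowest to 304Q/304Q mice, with the other 4 mixed. This gave a log2 fold change of -0.33 (SE 0.134) and an adjusted p of 0.854 by edgeR's quasi-likelihood test.

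**Figure D2:**
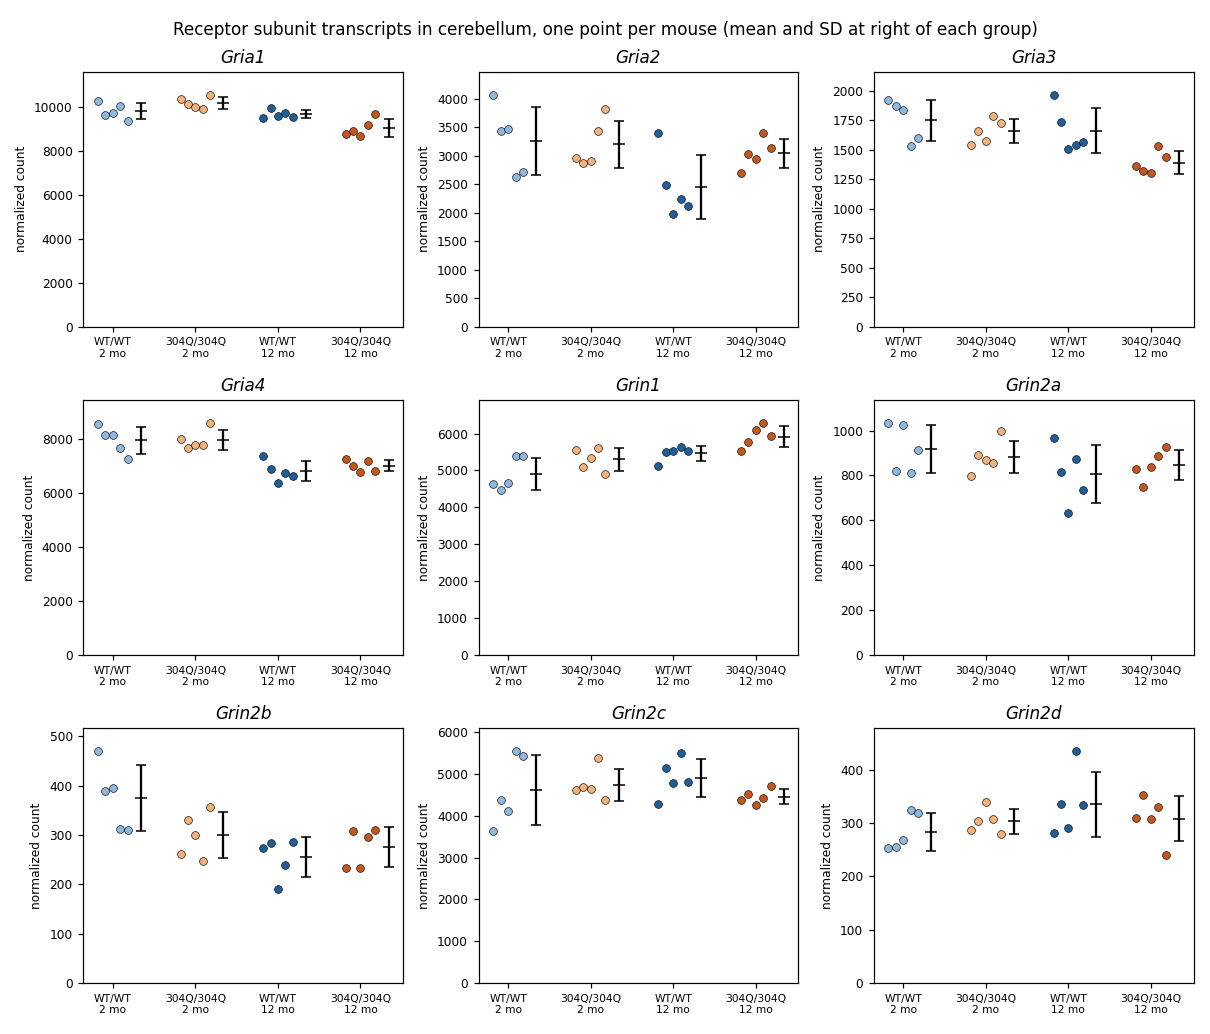
Normalized counts of each subunit gene, 1 panel per gene and 1 point per mouse, with the mean and SD to the right of each group; every vertical axis starts at 0. Grin2b is higher in the WT/WT mice of 2 months (310 to 469.7) than in those of 12 months (190.3 to 285.3), and Gria3 is lowest in the 304Q/304Q mice of 12 months (1298 to 1530).

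At 12 months, 1 of the 9 subunit genes, Gria3, differed between the genotypes and was lower in 304Q/304Q mice. By the same test, 12.5% of all genes had an adjusted p of at most 0.05, 7.3% of all genes being lower and 5.23% higher, so that 1 of 9 is near the share of all genes. None of the 9 genes also reached a log2 fold change of 0.5 in size, the limit for a differentially expressed gene (DEG), which 3.09% of all genes did. The genotypes overlapped for all 9 genes, and non-overlap was found for 8.94% of all genes. The log2 fold changes ran from -0.26 (Gria3) to 0.32 (Gria2), with a median of 0.043 beside -0.004 over all genes tested.

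Gria3 (chrX:41400854-41678601, plus strand), the partner of GluA2 in many receptors, had normalized counts of 1962, 1730, 1503, 1542 and 1567 in the WT/WT mice of 12 months and of 1360, 1321, 1298, 1530 and 1441 in the 304Q/304Q mice. The 4 lowest of the 10 values were 304Q/304Q mice, and the groups overlapped only in that 304Q/304Q mouse 4 (1530) lay above WT/WT mouse 3 (1503). The log2 fold change was -0.26 (SE 0.0755, adjusted p = 0.0259 by edgeR's quasi-likelihood test), and an exact two-sided permutation test gave p = 0.0159, where 0.00794 is the smallest possible with 5 against 5 mice. At 2 months, when the same gene had 1920, 1865, 1838, 1534 and 1594 in WT/WT mice and 1541, 1660, 1575, 1782 and 1722 in 304Q/304Q mice, the groups were mixed and the log2 fold change was -0.08 (SE 0.0748). The change of the genotype effect between the ages, -0.18 (SE 0.106), did not pass by the same edgeR test (adjusted p = 0.423).

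The call of Gria3 at 12 months moved with 2 properties of the libraries. Without the 6 libraries rich in choroid plexus transcripts, which leaves 2 WT/WT and 3 304Q/304Q mice of 12 months, the log2 fold change was -0.09 (adjusted p = 0.621, edgeR). With the GC and length trends of each library removed it was -0.43 (adjusted p = 2.27e-06, edgeR), and the change of the genotype effect between the ages then was -0.41 (adjusted p = 0.00251). With 3 surrogate variables in the model the log2 fold change at 12 months was -0.31 (adjusted p = 0.000168 in DESeq2 and 0.00101 in edgeR). The gene no longer passed when WT/WT mouse 1, WT/WT mouse 2 or 304Q/304Q mouse 1, 2 or 3 of 12 months was left out (log2 fold changes of -0.29 to -0.19 and adjusted p of 0.0193 to 0.0683 over the 20 fits by edgeR that each left out 1 mouse). Purkinje cell transcripts also moved with genotype at this age: 7 of the 8 listed (Pcp2, Calb1, Ppp1r17, Itpr1, Slc1a6, Gad1, Pcp4) passed as lower, and their summed RPKM was 1160 to 1300 in WT/WT mice and 938 to 1000 in 304Q/304Q mice. No group mean of these 8 genes was below 504.5 normalized counts. Of 7 listed transcripts of molecular layer interneurons, 2 (Pvalb, Prkcd) passed as lower and 5 did not pass, with sums of 866 to 1080 and 678 to 756. Pvalb had the highest normalized counts of these 7, with means of 13100 (WT/WT) and 9561 (304Q/304Q). Kit came next with 3233 and 3077, so that these sums lean on Pvalb and do not stand for the list as a whole. In whole tissue, fewer cells of a type and less RNA per cell cannot be told apart, and the part of these markers in the Gria3 result was not tested.

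Gria2 (chr3:80681450-80802835, minus strand), the subunit that is edited, showed the reverse direction without passing. Its normalized counts at 12 months were 3398, 2490, 1983, 2250 and 2123 in WT/WT mice and 2704, 3035, 2941, 3409 and 3139 in 304Q/304Q mice. All 5 304Q/304Q mice lay above 4 of the WT/WT mice, and WT/WT mouse 1 lay near the top of the 304Q/304Q range. Across both groups the log2 fold change was 0.32 (SE 0.126, adjusted p = 0.104 by edgeR's quasi-likelihood test). Without WT/WT mouse 1 of 12 months it was 0.46 (adjusted p = 0.00482, edgeR), without the libraries rich in choroid plexus transcripts, a group that includes this mouse, 0.59 (adjusted p = 0.0332), and with the GC and length trends removed 0.08 (adjusted p = 0.327). WT/WT mouse 1 also had the lowest GC slope of its group, -0.075 where the other 4 had 0.129 to 0.203. Whether Gria2 differs between the genotypes at 12 months thus depended on 1 mouse and on the correction.

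Of the other AMPA subunits at 12 months, Gria1 (chr11:57011387-57330244, plus strand) had 9509, 9978, 9577, 9750 and 9566 in WT/WT mice and 8789, 8890, 8702, 9176 and 9683 in 304Q/304Q mice. 4 of the 5 304Q/304Q mice lay below every WT/WT mouse and mouse 5 lay among them. The log2 fold change of -0.10 (SE 0.0388) did not pass (adjusted p = 0.106, edgeR's quasi-likelihood test), but did without 304Q/304Q mouse 5 (-0.13, adjusted p = 0.0325). Gria4 (chr9:4417896-4796234, minus strand) was close in both genotypes, with 7377, 6867, 6365, 6755 and 6644 in WT/WT mice, 7261, 7015, 6773, 7171 and 6828 in 304Q/304Q mice and a log2 fold change of 0.04 (SE 0.0488).

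Grin1 (chr2:25291181-25319187, minus strand), which every NMDA receptor needs, had normalized counts of 5124, 5501, 5513, 5646 and 5540 in WT/WT mice and 5530, 5760, 6098, 6280 and 5920 in 304Q/304Q mice of 12 months. 4 of the 5 304Q/304Q mice lay above all WT/WT mice and mouse 1 lay among them. The log2 fold change of 0.12 (SE 0.0567) did not pass (adjusted p = 0.192 by edgeR's quasi-likelihood test), but did with the GC and length trends removed (0.20, adjusted p = 0.00571). Grin1 shares 1307 bases of exon with the antisense gene Grin1os, and the sources used here do not say if strand was used in counting, so that reads of both genes may have been counted together or left out.

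Grin2c (chr11:115249169-115267243, minus strand), the GluN2C subunit of mature granule cells, had 4292, 5139, 4776, 5491 and 4814 in WT/WT mice and 4368, 4513, 4269, 4431 and 4724 in 304Q/304Q mice of 12 months. The 304Q/304Q mice lay within a narrower range, 4269 to 4724, and 4 of the 5 WT/WT mice lay above it. Its log2 fold change was -0.14 (SE 0.089, adjusted p = 0.338 by edgeR's quasi-likelihood test). It was -0.20 with 3 surrogate variables in the model, where it passed in edgeR (adjusted p = 0.0183) and in DESeq2 (adjusted p = 0.0154), and -0.03 with the GC and length trends removed. The remaining GluN2 genes overlapped widely: at 12 months Grin2a (chr16:9567898-9995560, minus strand) ranged from 633.9 to 968.9 in WT/WT and from 748.8 to 926.5 in 304Q/304Q mice, Grin2b from 190.3 to 285.3 and from 232.6 to 311.2, and Grin2d (chr7:45831883-45878378, minus strand) from 280.7 to 434.3 and from 240.9 to 352.2. Their log2 fold changes were 0.07 (SE 0.0965), 0.12 (SE 0.138) and -0.12 (SE 0.117). Grin2d shares 643 exon bases with the antisense gene Gm45441, Grin2b 278 with 3 antisense genes and Grin2c 91 with Gm25837, with the same uncertainty as for Grin1.

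**Figure D3:**
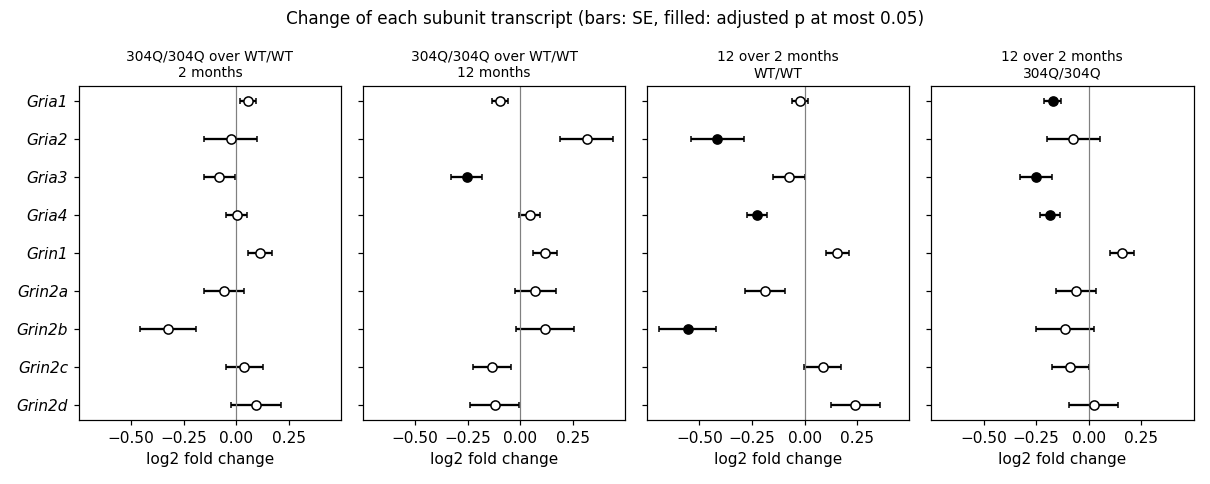
Log2 fold change of each subunit gene with its SE (bars) for genotype at 2 and at 12 months and for age in each genotype; filled points have an adjusted p of at most 0.05. The largest change is that of Grin2b with age in WT/WT mice, -0.56, and no point is filled for genotype at 2 months.

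With age, subunit transcripts that passed were all lower at 12 than at 2 months, in both genotypes. In WT/WT mice 3 of the 9 genes passed, Grin2b, Gria2 and Gria4, where 11.5% of all genes passed (5.42% lower, 6.08% higher). Only Grin2b was also a DEG (2.58% of all genes) and only its groups did not overlap (6.57% of all genes, 2.93% with the older mice lower). In 304Q/304Q mice 3 of the 9 genes passed, Gria1, Gria3 and Gria4, where 7.26% of all genes passed (4.18% lower, 3.08% higher). The ages did not overlap for any of these 3 genes (7.8% of all genes, 4.2% with the older mice lower), and none was a DEG (2.28% of all genes). The median log2 fold change with age over the 9 genes was -0.075 in WT/WT mice and -0.088 in 304Q/304Q mice, beside 0.002 and -0.004 over all genes tested. Each age comparison shares its mice with the comparisons of genotype.

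Gria4, the subunit of granule cells and Bergmann glia, passed in both genotypes. Its normalized counts were 8564, 8127, 8158, 7653 and 7270 in WT/WT mice of 2 months, 7377, 6867, 6365, 6755 and 6644 in those of 12 months, 8011, 7661, 7770, 7789 and 8582 in 304Q/304Q mice of 2 months and 7261, 7015, 6773, 7171 and 6828 in those of 12 months. In WT/WT mice only mouse 1 of 12 months (7377) lay above a mouse of 2 months (7270), and in 304Q/304Q mice none did. With age, the log2 fold change was -0.23 (SE 0.0488, adjusted p = 0.0049) in WT/WT mice and -0.18 (SE 0.0488, adjusted p = 0.0194) in 304Q/304Q mice (edgeR). With the GC and length trends removed, it was -0.13 in WT/WT (adjusted p = 0.0189) and -0.18 in 304Q/304Q mice. The call in 304Q/304Q mice was lost without mouse 5 of 2 months or mouse 3 of 12 months (adjusted p of 0.0121 to 0.0596 over the fits that left out 1 mouse) and without the libraries rich in choroid plexus transcripts (-0.20, adjusted p = 0.091). Of the 9 listed granule cell transcripts, 5 passed as lower with age in WT/WT mice and 2 in 304Q/304Q mice, with summed RPKM of 1490 to 1670 at 2 and 1340 to 1440 at 12 months in WT/WT mice and of 1510 to 1670 and 1430 to 1570 in 304Q/304Q mice. Of the 9 listed transcripts of Bergmann glia and astrocytes, 1 passed as higher and 2 as lower with age in WT/WT mice, with sums of 427 to 486 at 2 and 432 to 448 at 12 months. In 304Q/304Q mice 1 passed as higher and 5 as lower, with sums of 422 to 459 and 370 to 401 that did not overlap. The part of both sets of transcripts in the Gria4 result was not tested.

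Grin2b had normalized counts of 274, 284.4, 190.3, 239.7 and 285.3 in WT/WT mice of 12 months, all below the 5 WT/WT mice of 2 months given above. The log2 fold change was -0.56 (SE 0.136, adjusted p = 0.011 by edgeR's quasi-likelihood test), the largest in size of the 9 genes in any comparison of age or genotype, and it passed in each of the 20 fits that left out 1 mouse. It was -0.35 (adjusted p = 0.0338) with the GC and length trends removed, and with 3 surrogate variables in edgeR it no longer passed (adjusted p = 0.0577). In 304Q/304Q mice, with 232.6, 307.9, 232.6, 295.4 and 311.2 at 12 months, the ages overlapped and the log2 fold change was -0.11 (SE 0.136, adjusted p = 0.731). The difference between these age effects, 0.44 (SE 0.192), did not pass (adjusted p = 0.267), so that Grin2b is not shown to age differently in the genotypes. Its level was low throughout, at most 1.33 RPKM in any mouse.

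Gria2 fell with age in WT/WT mice by 0.41 on the log2 scale (SE 0.126, adjusted p = 0.0345 by edgeR's quasi-likelihood test). Its normalized counts at 2 months were 4069, 3438, 3465, 2634 and 2713 in WT/WT mice and 2968, 2884, 2906, 3437 and 3818 in 304Q/304Q mice. WT/WT mice 1, 2 and 3 of 2 months had the highest values together with mouse 1 of 12 months, and mice 4 and 5 of 2 months (2634 and 2713) lay above the other 4 of 12 months. The same mice 1, 2 and 3 of 2 months had GC slopes of -0.188 to -0.124, and mice 4 and 5 had 0.074 and 0.06. With the GC and length trends removed the log2 fold change was -0.07 (adjusted p = 0.417), and the call was also lost without WT/WT mouse 1, 2 or 3 of 2 months or mouse 2, 3, 4 or 5 of 12 months (adjusted p of 0.00124 to 0.123 over the fits that left out 1 mouse). The change with age in 304Q/304Q mice was -0.07 (SE 0.125, adjusted p = 0.825).

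Gria1 did not pass with age in WT/WT mice, whose values at 2 months were 10290, 9649, 9748, 10060 and 9366 (log2 fold change -0.02, SE 0.0388, adjusted p = 0.759). In 304Q/304Q mice it went from 10360, 10150, 10020, 9902 and 10550 at 2 months to values that were all lower at 12 months. Its log2 fold change there was -0.17 (SE 0.0388, adjusted p = 0.00558 by edgeR's quasi-likelihood test). The difference between the age effects was -0.15 (SE 0.0549, unadjusted p = 0.0113, adjusted p = 0.175). Gria3 in 304Q/304Q mice was likewise lower at 12 months in every mouse, at -0.25 on the log2 scale (SE 0.0753, adjusted p = 0.0405 by the same test). This call of Gria3 was lost with the replicate block (adjusted p = 0.0592) and in 7 of the 20 edgeR fits that left out 1 mouse, namely 304Q/304Q mouse 2, 3, 4 or 5 of 2 months or mouse 1, 2 or 3 of 12 months (adjusted p of up to 0.107). Without the libraries rich in choroid plexus transcripts neither gene passed, at log2 fold changes of similar size (Gria1 -0.15, adjusted p = 0.128, and Gria3 -0.23, adjusted p = 0.176). In WT/WT mice the change of Gria3 with age was -0.08 (SE 0.075).

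The NMDA genes Grin1, Grin2a, Grin2c and Grin2d did not pass with age in either genotype. Grin1 was 0.16 higher at 12 months on the log2 scale in WT/WT (SE 0.0567, adjusted p = 0.0745) and 0.16 higher in 304Q/304Q mice (SE 0.0567, adjusted p = 0.0975, edgeR's quasi-likelihood test). Its values at 2 months were 4644, 4460, 4655, 5386 and 5383 in WT/WT mice and 5563, 5095, 5350, 5605 and 4893 in 304Q/304Q mice, of which the WT/WT mice fell into 3 low and 2 high ones. Grin1 passed in 304Q/304Q mice with the GC and length trends removed (0.15, adjusted p = 0.0414) and in both fits with surrogate variables. Grin2c split the WT/WT mice of 2 months in the same way, with 3646, 4368, 4115, 5542 and 5421, and the 304Q/304Q mice of 2 months had 4609, 4683, 4646, 5391 and 4385. Its log2 fold change with age was 0.09 (SE 0.089) in WT/WT mice and -0.09 (SE 0.089) in 304Q/304Q mice, where it passed in both fits with surrogate variables (-0.13 in DESeq2, adjusted p = 0.0441, and -0.14 in edgeR, adjusted p = 0.0489). Grin2a was -0.19 (SE 0.0962) in WT/WT mice and -0.06 (SE 0.0958) in 304Q/304Q mice, and Grin2d 0.24 (SE 0.117) and 0.02 (SE 0.117).

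In the main fit, no subunit gene passed the test of whether the genotype effect differed between the ages: 0 of 9 by edgeR's quasi-likelihood test, where 1.95% of all genes passed. DESeq2 without surrogate variables also gave 0 of 9. An unadjusted p under 0.05, which 15.9% of all genes reached, was given by 2 of the 9, Gria1 and Grin2b. The differences ran from -0.22 (Grin2d) to 0.44 (Grin2b). With 3 surrogate variables in the model Gria3 passed, at -0.29 in DESeq2 (adjusted p = 0.0257) and -0.29 in edgeR (adjusted p = 0.0435). Gria3 also passed with the GC and length trends removed, as given above.

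Within groups, the 9 transcripts as measured varied in 2 opposite blocks. Their GC content fell into 2 ranges: 36.8 to 48.5% for the 6 genes Gria1, Gria2, Gria3, Gria4, Grin2a and Grin2b, and 59.4 to 65% for the 3 genes Grin1, Grin2c and Grin2d. Over the 20 mice, after subtraction of the group means, all 15 pairs among the 6 genes were positively correlated (Pearson r of 0.23 to 0.91, the highest for Gria2 with Gria3), as were all 3 pairs among the other genes (0.51 to 0.74), and all 18 pairs across were negatively correlated (-0.69 to -0.09, the lowest for Gria4 with Grin2c). With the GC and length trends of each library removed, 7 of the 15, 3 of the 3 and 11 of the 18 pairs were positive, with medians of 0.00, 0.36 and 0.02. As measured, the blocks thus were not the AMPA subunits on one side and the NMDA subunits on the other: Grin2a and Grin2b went with the AMPA genes. With the trends removed, r with the 4 AMPA genes was -0.18 to 0.29 for Grin2a and -0.21 to 0.25 for Grin2b. The points share libraries and their depth and base composition, and the correlations are a description.

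**Figure D4:**
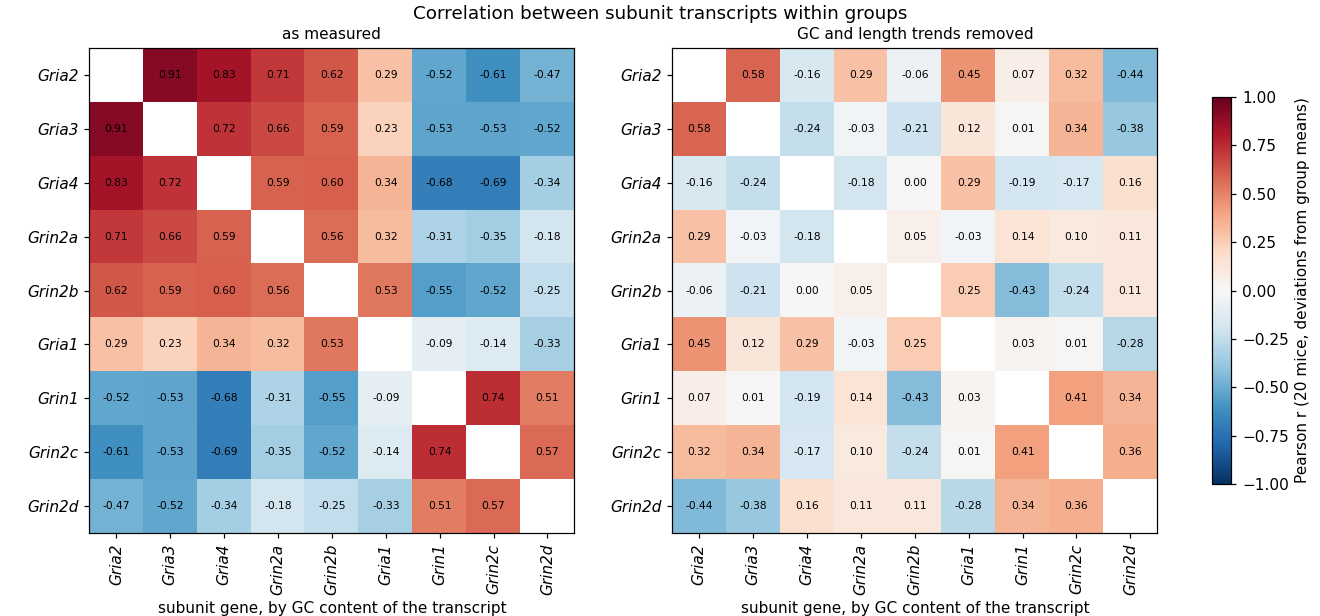
Pearson r between subunit genes over 20 mice, on deviations from the group means of log2 normalized levels, with genes ordered by the GC content of their transcript; left as measured, right with the GC and length trends of each library removed. On the left a positive block of 6 genes (0.23 to 0.91) and one of 3 genes (0.51 to 0.74) face negative values (-0.69 to -0.09), and on the right the medians within the larger block and across are 0.00 and 0.02.

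Among all genes tested, those whose log2 level over the 20 libraries was most like Gria2 were Celf1 (Pearson r = 0.966), Myef2 (0.957) and Celf2 (0.955). Gria4 was most like Myo6 (0.934), Plcxd2 (0.931) and Kcna1 (0.921), Gria1 like Lrp8 (0.901), Map4k4 (0.879) and Gabbr1 (0.859), and Gria3 like Atp10a (0.891), Atl2 (0.891) and Kcnma1 (0.889). For the NMDA subunits these were Lmtk3 (0.894), Fam213b (0.891) and Ik (0.89) for Grin1, Clcn5 (0.892), Ank3 (0.887) and Tcp11l1 (0.886) for Grin2b, Rhbdf1 (0.885), Ndufs6 (0.859) and B4galnt4 (0.837) for Grin2c, Tnik (0.857), Kdm1b (0.855) and Dennd4a (0.839) for Grin2a, and Zfp775 (0.821), Pdk2 (0.798) and Nicn1 (0.795) for Grin2d. No subunit gene was among the 3 most alike of another. For this likeness neither the group means nor the GC and length trends of the libraries were removed, and their part in it was not tested.

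Genes that assist these receptors were taken from 6 lists. At 2 months 0 of their 76 tested genes passed by edgeR's quasi-likelihood test (8 with an unadjusted p under 0.05, and 1 by DESeq2, the Syndig1l described next). At 12 months 4 of the 76 passed as higher and 19 as lower in 304Q/304Q mice, where 5.23% of all genes passed as higher and 7.3% as lower. The same shares stand behind the counts of each list given next. Of the 15 tested auxiliary subunits of AMPA receptors, 3 passed as lower and 1 as higher in 304Q/304Q mice. Syndig1l, a relative of the synapse protein SynDIG1, already stood apart at 2 months, with 238.9, 286, 356.9, 345.3 and 268 normalized counts in WT/WT mice and 397, 495.7, 477.9, 366.5 and 446 in 304Q/304Q mice. The genotypes did not overlap, but the log2 fold change of 0.54 (SE 0.127) passed only in DESeq2 (adjusted p = 0.0144) and not in edgeR (adjusted p = 0.166), and the gene is named here for 2 months after its values were seen. At 12 months it had 294, 517.3, 436.2, 345 and 408.6 normalized counts in WT/WT mice and 638.1, 629.2, 592.6, 653 and 696.6 in 304Q/304Q mice. All 304Q/304Q mice lay above all WT/WT mice, and the log2 fold change was 0.68 (SE 0.124, adjusted p = 0.000547 by edgeR's quasi-likelihood test). Syndig1 itself was lower, -0.30 (SE 0.0615, adjusted p = 0.00175), with no overlap. Shisa8, an AMPA receptor modulator also known as CKAMP39, was lower, at -0.70 (SE 0.205, adjusted p = 0.0253) with 323, 615.5, 485.3, 575.7 and 451.9 in WT/WT mice and 309.8, 232.6, 338.8, 285.6 and 344.3 in 304Q/304Q mice, where WT/WT mouse 1 (323) lay within the 304Q/304Q range, and Cacng3, a TARP, at -0.40 (SE 0.124, adjusted p = 0.0337), with overlap. Shisa8 passed in 16 of the 20 fits that left out 1 mouse, and not without WT/WT mouse 2 or 4 or 304Q/304Q mouse 2 or 4 of 12 months (adjusted p of up to 0.0756). Cacng3 passed in 14, and not without WT/WT mouse 1, 3 or 5 or 304Q/304Q mouse 1, 3 or 4 (adjusted p of up to 0.0973). In the other 12 alternative fits, Shisa8 passed in 10 (adjusted p of up to 0.0889, edgeR or DESeq2) and Cacng3 in 7 (up to 0.184). Syndig1 and Syndig1l passed in all 12 at this age. The median log2 fold change of this list was -0.075 beside -0.004 over all genes tested.

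Of the 9 tested genes of the kainate, delta and GluN3 subunits and their partners, 3 passed as lower at 12 months and 1 as higher. The kainate receptor subunit gene Grik4 had 289.6, 333, 349.6, 294.9 and 396.4 normalized counts in WT/WT mice and 217.2, 251.4, 232.6, 222.4 and 242.9 in 304Q/304Q mice, with no overlap, a log2 fold change of -0.51 (SE 0.0902) and an adjusted p of 0.000381 by edgeR's quasi-likelihood test. Grik3 (-0.31, SE 0.0461) and Grik1 (-0.30, SE 0.0796) were lower in all 304Q/304Q mice as well, and Grik5 was higher (0.21, SE 0.0707, adjusted p = 0.0475) but passed in only 7 of the 20 fits that left out 1 mouse (adjusted p of 0.0212 to 0.117). In the other 12 alternative fits, Grik5 passed in 7 (adjusted p of up to 0.433, edgeR or DESeq2) and Grik1 in 11 (up to 0.1). Grik3 and Grik4 passed in all 12. The list's median was -0.084. The GluN3 gene Grin3a did not pass.

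Of 24 tested genes of postsynaptic scaffolds and receptor trafficking, 8 passed as lower and 1 as higher at 12 months. Homer3, the Homer scaffold of Purkinje cells, had 3221, 3774, 4315, 3417 and 3499 normalized counts in WT/WT mice and 2814, 2407, 2413, 2579 and 2463 in 304Q/304Q mice. All 304Q/304Q mice were lower, at -0.52 on the log2 scale (SE 0.0694, adjusted p = 1.2e-05 by edgeR's quasi-likelihood test). Homer3 shares 874 exon bases with the antisense gene Ddx49, whose reads may not be told apart. Grip2, which binds GluA2 and GluA3, was lower, at -0.51 (SE 0.113, adjusted p = 0.00385) and Dlgap3 at -0.32 (SE 0.0862, adjusted p = 0.014), whereas Nlgn1, the postsynaptic neuroligin 1, was higher by 0.39 (SE 0.105, adjusted p = 0.0157), but did not pass without WT/WT mouse 3 of 12 months (0.35, adjusted p = 0.052). Without the libraries rich in choroid plexus transcripts Homer3 passed, whereas Grip2 (-0.43, adjusted p = 0.148), Dlgap3 (-0.38, adjusted p = 0.0894) and Nlgn1 (0.46, adjusted p = 0.0837) did not. Nlgn1 shares 1229 exon bases with the antisense gene A830092H15Rik, with the same uncertainty as for Homer3. The median of the list was -0.04.

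Of the 15 tested kinases, phosphatases and RNA editing enzymes, Camk2a, a subunit of the calmodulin kinase that acts on AMPA receptors, was lower at 12 months, at a log2 fold change of -0.35 (SE 0.0593, adjusted p = 0.000283) with no overlap, and Camk2d was higher by 0.29 (SE 0.0694, adjusted p = 0.00757, both by edgeR). Adarb1, which encodes the enzyme that edits the GluA2 transcript, did not pass. Of 7 genes for the co-agonists of NMDA receptors, Dao, the D-serine degrading enzyme, had 1165, 1335, 1468, 1342 and 1437 in WT/WT mice and 969.6, 983.6, 1055, 999.7 and 858.2 in 304Q/304Q mice, all lower, at -0.47 (SE 0.0786, adjusted p = 0.000194), and the glycine transporter gene Slc6a9 was lower, at -0.38 (SE 0.0652, adjusted p = 0.000248). Of 6 tested glutamate transporters, Slc1a6, that of Purkinje cells, was lower, at -0.31 (SE 0.0495, adjusted p = 0.00011). The medians of these 3 lists were 0.057, -0.199 and -0.077. Slc6a9 shares 1986 exon bases with 3 antisense genes, with the same uncertainty as for Grin1. In the other 12 alternative fits, Camk2a passed in 11 (adjusted p of up to 0.0946, edgeR or DESeq2) and Slc6a9 in 11 (up to 0.0855). Camk2d, Dao and Slc1a6 passed in all 12. Homer3 and Slc1a6 are known as Purkinje cell transcripts, and the Purkinje cell sums given above, which include Slc1a6, were lower as well. Of the 9 listed transcripts of Bergmann glia and astrocytes, 5 (Gdf10, Aldh1l1, Fgfr3, A2m, Agt) passed as lower at 12 months, with sums of 432 to 448 in WT/WT mice and 370 to 401 in 304Q/304Q mice. The part of these cell types in the results on Homer3, Slc1a6, Dao and Slc6a9 was not tested.

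**Figure D5:**
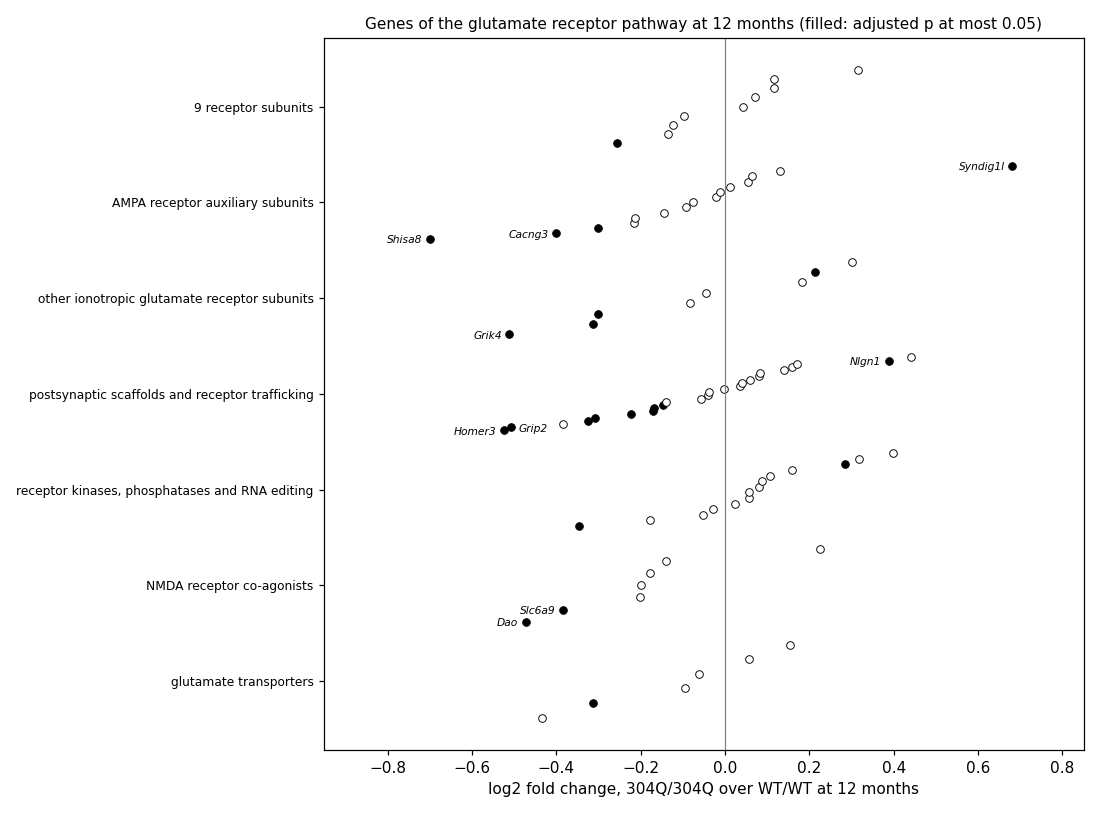
Log2 fold change of 304Q/304Q over WT/WT mice at 12 months for the 9 subunit genes and the genes of the 6 lists that are reported here, 1 point per gene; filled points have an adjusted p of at most 0.05, and filled points of at least 0.35 in size are named. Gria3 (-0.26) is the only filled subunit, and Shisa8 (-0.70) and Syndig1l (0.68) lie at the ends.

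With age, Neto2, a kainate receptor partner, was lower in WT/WT mice, at -0.69 (SE 0.149, adjusted p = 0.00494), Camk4, the calmodulin kinase of granule cells, at -0.61 (SE 0.0775, adjusted p = 2.84e-05) and Srr, the D-serine producing racemase, at -0.47 (SE 0.075, adjusted p = 0.000316, edgeR's quasi-likelihood test). Srr shares 1366 exon bases with 2 antisense genes, with the same uncertainty as for Grin1. The vesicular transporter gene Slc17a7 was lower in WT/WT (-0.21, adjusted p = 0.002) and in 304Q/304Q mice (-0.14, adjusted p = 0.0269), and so was Camk4 in 304Q/304Q mice (-0.28, adjusted p = 0.0237). Dlgap3 (0.43, adjusted p = 0.00288), Grip2 (0.38, adjusted p = 0.0303) and Syndig1l (0.42, adjusted p = 0.0345) were higher at 12 months in WT/WT mice. In 304Q/304Q mice, Syndig1l was higher (0.56, adjusted p = 0.00455), and Grik4 (-0.46, adjusted p = 0.00143), Slc6a9 (-0.45, adjusted p = 4.69e-05) and Shank2 (-0.37, adjusted p = 0.000228) were lower. Without the libraries rich in choroid plexus transcripts, which leaves 14 of the 20, some of these genes no longer passed at log2 fold changes of similar size. In WT/WT mice these were Slc17a7 (-0.17, adjusted p = 0.0508), Grip2 (0.36, adjusted p = 0.151) and Syndig1l (0.38, adjusted p = 0.109), and in 304Q/304Q mice Slc17a7 (-0.15, adjusted p = 0.122) and Camk4 (-0.30, adjusted p = 0.101). Over the 6 lists, 5 of the 76 tested genes passed as higher and 8 as lower with age in WT/WT mice, where 6.08% and 5.42% of all genes did. In 304Q/304Q mice 1 passed as higher and 13 as lower, where 3.08% and 4.18% of all genes did.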

How the data were processed

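Cerebellar mRNA was sequenced by the authors, aligned to GRCm38 with STAR (2.4.5b per the submitters' processing notes, while the study's methods give another version) and counted per gene with Rsubread, and the deposited values are raw counts for 29200 genes in 20 libraries (11385380 to 27636687 counts each). Here, gene symbols and positions came from GENCODE M21. Genes averaging 50 counts or more per library were kept (12153 genes with 99.3% of all counts) and tested with edgeR 4.0.16 (R 4.3.3): TMM normalization, 1 model over the 4 groups and the quasi-likelihood test, with Benjamini-Hochberg adjustment over all genes tested. Log2 levels, normalized for library size, used a prior count of 2. A gene passed at an adjusted p of at most 0.05, and a DEG also changed by 0.5 or more on the log2 scale. The labels do not say whether libraries of a group came from separate preparations, so that p-values measure the spread between these samples. DESeq2 1.42.0, sva 3.50.0 with 3 surrogate variables, other filters and scalings, a replicate block, removal of GC and length trends, thinning and leaving out each mouse served as alternatives, and leaving out the 6 libraries rich in choroid plexus transcripts was chosen after seeing the data. The edgeR fit, the DESeq2 fit without surrogate variables and the removal of GC trends were tested on simulated counts. The other steps were not. The replicate numbers were not treated as pairs in the main model. All 9 subunits were named, and of each list the genes that passed, at most the 4 largest for genotype and the 3 largest for age. Some genes of the lists are not reported here by name. The members, lists and tests were chosen with earlier results of these data known.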

Additional observations from a re-analysis of the deposited data

Results flagged for a closer look

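In 36 groups of 5 mice (9 subunit genes in 4 groups), the gap of an end value to its neighbour exceeded Dixon's 95% limit once, where chance flags about 1 in 20 groups. This was Grin1 in WT/WT mouse 1 of 12 months, with 5124 normalized counts where the other 4 mice had 5501 to 5646. Without this mouse, the change of Grin1 with age in WT/WT mice passed (0.18, adjusted p = 0.0347, edgeR's quasi-likelihood test). It also passed without WT/WT mouse 4 or 5 of 2 months (0.19 each), so in 3 of the 20 fits that left out 1 mouse. In the other 12 alternative fits it passed in 0, with log2 fold changes of 0.06 to 0.18.

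The effect of genotype differed between 12 and 2 months, by the interaction term of the same edgeR test, for 5 genes described here from the lists that assist the receptors, and for none of the 9 subunits. The difference was -0.56 on the log2 scale for the kainate receptor gene Grik4 (adjusted p = 0.0166) and -0.48 for the scaffold gene Homer3 (adjusted p = 0.00705). It was -0.33 for the kinase gene Camk2a (adjusted p = 0.0388). For Psat1, of serine synthesis, it was -0.37 (adjusted p = 0.0452), and for the glutamate transporter gene Slc1a6 it was -0.26 (adjusted p = 0.049). The genotype effect of Psat1 passed at neither age in edgeR, at 0.17 at 2 months (adjusted p = 0.832) and -0.20 at 12 months (adjusted p = 0.0551). Grik4 and Homer3 passed in all 20 fits that left out 1 mouse, Camk2a and Psat1 in 8 and Slc1a6 in 5. In the other 11 alternative fits with an interaction term, Homer3 passed in 11, Grik4 in 10, Camk2a and Psat1 in 6 and Slc1a6 in 3. The adjusted p there (edgeR or DESeq2) reached 0.103 for Grik4, 0.283 for Camk2a, 0.1 for Psat1 and 0.474 for Slc1a6.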

How the results depend on the processing

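Of the 9 subunits, 1 passed for genotype at 12 months, 3 for age in WT/WT, 3 for age in 304Q/304Q mice and 0 for the interaction. When a log2 fold change of at least 0.5 was also asked for, these counts were 0, 1, 0 and 0. With 3 surrogate variables they were 3, 2, 5 and 1 in DESeq2 and 2, 1, 5 and 1 in edgeR, and with the GC and length trends removed 2, 2, 4 and 1. Without the libraries rich in choroid plexus transcripts they were 1, 3, 0 and 0. Leaving out 1 mouse at a time gave 0 to 0 for genotype at 2 months, 0 to 2 at 12 months, 2 to 5 for age in WT/WT, 1 to 3 for age in 304Q/304Q mice and 0 to 0 for the interaction. The causes were not tested.

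With the longest coding transcript as the length, the mean RPKM was 123 for Gria1, 20.3 for Gria2, 21.9 for Gria3, 96.1 for Gria4, 88.8 for Grin1, 4.15 for Grin2a and 3.98 for Grin2d, and the shares were 47.1% for Gria1, 7.73% for Gria2, 8.36% for Gria3, 88.1% for Grin2c and 5.23% for Grin2d.

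Same-numbered mice correlated above 0.1 in 6 of 30 pairs (-0.323 to 0.551), and the numbers were not treated as pairs in the main model. These correlations cannot decide whether the numbers mark a shared origin, because libraries also vary together through base composition and choroid plexus content. With the replicate block, age in 304Q/304Q mice gave 2 genes in place of 3, as Gria3 had -0.25 (adjusted p = 0.0592, edgeR), and the other counts were the same.

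Directions turned only for effects that passed neither before nor after. With surrogate variables (DESeq2, edgeR), the log2 fold changes were 0.09 and 0.09 for Gria2 and -0.01 and -0.01 for Grin2c at 2 months, 0.05 and 0.05 for Gria3 with age in WT/WT, -0.06 and -0.07 for Grin2d with age in 304Q/304Q mice, and, for the interaction, 0.00 and -0.01 for Grin1 and 0.00 in edgeR for Gria4. With the GC and length trends removed they were 0.08 for Gria2 and 0.01 for Grin2a at 2 months, -0.02 for Gria4, -0.01 for Grin2a and 0.01 for Grin2d at 12 months, 0.15 for Gria3 and -0.10 for Grin2c with age in WT/WT, -0.03 for Grin2d with age in 304Q/304Q mice, and 0.00 for Gria2, -0.05 for Gria4 and -0.02 for Grin2a in the interaction. Without the libraries rich in choroid plexus transcripts, Gria2 had 0.01 at 2 months, Grin2b 0.03 with age in 304Q/304Q mice and Grin1 -0.01 in the interaction. Grin1 had 0.00 in the interaction with the replicate block, and Gria4 0.00 at 2 months after thinning. Leaving out 1 mouse at a time turned some effects, whose ranges over the 20 fits were -0.09 to 0.06 for Gria2, -0.03 to 0.03 for Gria4 and -0.04 to 0.11 for Grin2c at 2 months, -0.01 to 0.14 for Grin2a at 12 months, -0.03 to 0.10 for Grin2d with age in 304Q/304Q mice and -0.03 to 0.04 for Grin1 in the interaction.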
